A study of Mus musculus with 12 samples.

Results

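DNA methylation was examined at 45 developmental transcription factor genes of the Pax, Lhx, sine oculis (Six2 to Six6), Irx, Dlx, Meis, Pitx, Otx, Emx, En and Msx families, 11 in all, in the mouse left ventricle. A gene region was a gene with 5 kb on each side, and a site was used where it had a value in all 12 mice. All 45 genes had such sites, from 4 at Lhx9 to 121 at Pax2, with a median of 42. Together they held 2119 of the 306534 autosomal sites measured in all mice, and they were 45 of 13383 gene regions with at least 3 sites. Dlx1 and Dlx2 lie close enough to share 3 sites.

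The mice were wild-type FVB/N offspring, taken at 3 weeks of age. Offspring of mothers on a high-fat diet (HFD) numbered 6, of which 3 were female and 3 male. Those of mothers on the regular chow (RD) also numbered 6, with 4 females and 2 males, and all fathers ate the regular chow. Reduced representation bisulfite sequencing reads CpGs on short fragments cut by MspI at CCGG, and gives for each the percentage of reads in which it is methylated. The labels do not tie pups to mothers, so pups may share a litter and p-values measure the spread between these mice. Library numbers ran from 2 to 8 in HFD and from 9 to 14 in RD offspring, so the order of the libraries and the diet cannot be told apart. Read counts were not used here because the values are percentages alone, and the depth behind a value is unknown.

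Homeobox and paired-box proteins bind DNA and set the identity of tissues in the embryo, such as eye, brain, limb, kidney and heart chambers. In many differentiated tissues the genes that encode them are known to lie in long CpG-rich stretches that lack DNA methylation and are held silent by Polycomb proteins. A low level here is therefore no measure of expression, and no expression was measured. Most members act outside the heart. Irx4 is known as a ventricular gene, Irx3 and Irx5 as regulators of cardiac conduction and repolarisation, and Meis1 as a regulator of the cardiomyocyte cell cycle.

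Starts of 3 members show the kind of sequence involved. Each line holds the 250 bases before a transcript start from the RefSeq promoter table of GRCm38.p6, 5′ to 3′ on the gene's strand, with the measured CpGs in capitals. The Dlx2 window was chosen as the start with the most measured sites, the Pax5 window as an unmethylated start in a gene region of high mean, and the Pax6 window because it holds the site with the smallest p-value for diet.
Dlx2, minus strand, chr2:71546755-71547004: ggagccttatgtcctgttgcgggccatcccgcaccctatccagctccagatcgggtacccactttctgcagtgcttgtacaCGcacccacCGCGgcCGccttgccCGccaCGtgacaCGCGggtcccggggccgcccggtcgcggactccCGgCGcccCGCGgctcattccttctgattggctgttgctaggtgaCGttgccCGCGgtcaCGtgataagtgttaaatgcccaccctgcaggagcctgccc
Pax5, minus strand, chr4:44710695-44710944: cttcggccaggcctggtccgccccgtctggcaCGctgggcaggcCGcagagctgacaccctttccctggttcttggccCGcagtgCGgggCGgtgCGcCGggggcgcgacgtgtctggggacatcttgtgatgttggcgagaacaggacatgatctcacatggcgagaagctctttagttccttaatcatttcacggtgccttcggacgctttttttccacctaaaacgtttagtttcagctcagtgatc
Pax6, an internal start, plus strand, chr2:105682213-105682462: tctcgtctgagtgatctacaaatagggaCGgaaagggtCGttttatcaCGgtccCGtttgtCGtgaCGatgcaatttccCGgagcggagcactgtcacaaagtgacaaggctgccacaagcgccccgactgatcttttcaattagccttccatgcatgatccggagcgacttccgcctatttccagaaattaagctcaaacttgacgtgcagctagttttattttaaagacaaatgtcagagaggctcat
The 16 measured sites of the Dlx2 window had a mean of 1.48%, the 7 of Pax5 3.27% and the 7 of Pax6 8.38%. The table held 44 start windows of 33 members, 20 of which had a measured site within the 300 bases that run on to 50 bases past the start. The median over those 20 was 2.16%, and 0 of them reached 20%. Of 4142 measured windows of autosomal protein-coding genes, the median was 1.78% and 6.57% reached 20%. The letters CCGG, a palindrome and so the same on both strands, occurred in 84.1% of the members' windows and in 63.5% of all 20085 windows.

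Most measured sites of the members had low methylation. The sites are clustered and leave much of each gene unread, and Pitx3, Six4, Lhx4, Pax1, Lhx6, Irx6, Pax8 and Lhx9 had none in the 5 kb flanks. Of the 2119 sites, 88.6% had a mean under 20%, 9.44% lay from 20 to 80% and 1.93% (41 sites) reached 80%. Over all autosomal sites these shares were 52.4%, 19.8% and 27.8%. The mean of a gene region had a median of 6.85% over the members and 25.7% over all gene regions. Of the members 29 (64.4%) lay under 10%, against 30.7% of all regions, and 0 lay over 35%, against 41.1%. The 50 other homeobox genes listed beside them had a median of 6.08%, the 37 Hox regions 5.03% and the 13 cardiac transcription factors 14.3%.

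Distance from the start showed where members and other genes part. In the first 1 kb before the start the median was 1.83% over 15 members and 2.14% over 4090 genes of the genome, and in the first 1 kb after it 1.93% and 1.89%. From 2 to 3 kb into the gene the medians were 7.22% over 12 members and 60.0% over 880 genes. From 4 to 5 kb before the start they were 7.43% over 6 members and 66.6% over 768 genes, and from 4 to 5 kb after it 17.3% over 9 members and 73.2% over 892 genes. The bins away from the start held 6 to 18 members each, and the upper quartile from 2 to 3 kb before the start was 40.4%, so the members were not uniform there. Of the members measured from 4 to 5 kb after the start, 55.6% lay under 20%, against 22.9% of all genes.

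**Figure D1:**
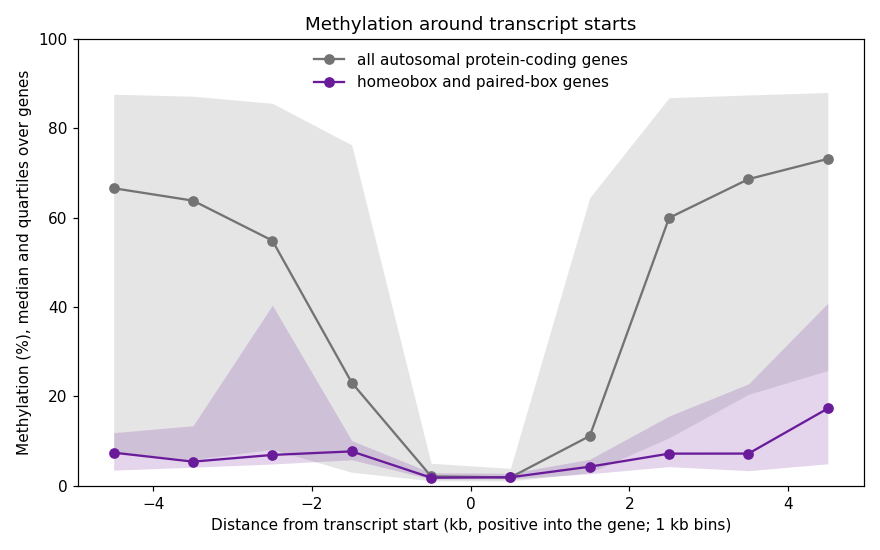
Methylation (percent) against distance from the first listed transcript start in 1 kb bins, with lines for the median over genes and bands from the lower to the upper quartile, for members (purple) and all autosomal protein-coding genes (grey). Both medians are near 2% beside the start, and from 4 to 5 kb into the gene they are 17.3% and 73.2%.

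Unmethylated domains were defined as runs of at least 5 sites with steps of at most 2000 bp, in which the running median over 3 sites stayed under 20%. A domain was present at 67.7% of all gene regions, 98% of the other homeobox genes and 86.5% of the Hox regions. The members had 92 such domains, in 44 of the 45 regions (97.8%). Lhx9 had none. Of the 92 domains 23 (25%) were wide, at least 2 kb from the first site to the last, against 415 of 9139 (4.54%) over all autosomes. A wide domain was present at 20 members (44.4%) and at 3.66% of all gene regions. The related genes had them too, at 36% of the other homeobox genes and 21.6% of the Hox regions. More sites make a long run easier to find, and the median number of sites was 42 over members and 16 over all regions. Among regions with at least 30 sites the counts were 18 of 29 members (62.1%) and 392 of 3293 regions (11.9%). Those members still had more sites, with a median of 59 against 42, so site number was not matched. The median widest domain was 1812 bp over members and 156 bp over all regions. These widths rest on joining across gaps without sites: with steps of at most 1000 bp, 5 members (Pax2, Irx3, Dlx2, Emx2 and En1) had a domain of 2 kb, against 0.912% of all gene regions, and the median widest domain of members was 909 bp.

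The widest of all 9139 domains lay at Pax6, a paired-box gene required for the eye. It ran over 7678 bp (chr2:105669091-105676768, mm10), from 195 bp inside the gene, with 35 sites and a mean of 6.33%. Its longest step without a site was 1983 bp, close to the limit of the definition. At Dlx2, a distal-less gene of forebrain and face, a domain of 6208 bp (chr2:71540715-71546922) held 94 sites at a mean of 4.06%, although its highest site was at 39.5%. Pax2, a gene of kidney and optic stalk, carried 5733 bp and 5273 bp domains that lay 3197 bp apart. Their means were 2.96% over 55 sites and 5.89% over 17.

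Each other family had its own widest domain. Among LIM homeobox genes it was at Lhx1 (2899 bp, 58 sites, mean 2.94%), a gene of head and kidney formation. Among Iroquois genes it was at Irx5 (4880 bp, 86 sites, mean 3.57%), and the domain began before the gene and ended inside it. Six3, a forebrain and eye gene, had 3664 bp with a mean of 2.26%, and Pitx1, a hindlimb gene, 3614 bp with a mean of 5.98%. En1, the midbrain and limb gene engrailed 1, had 4860 bp at 3.15%, and all 46 of its measured sites lay in it. Msx1, a gene of tooth and palate, had 3254 bp at 4.34%, Otx1, a brain gene, 2456 bp at 3.35%, and Emx2, a cortex and urogenital gene, 2320 bp at 2.04%. The Meis family had no wide domain, and the widest was at Meis1 with 951 bp.

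**Figure D2:**
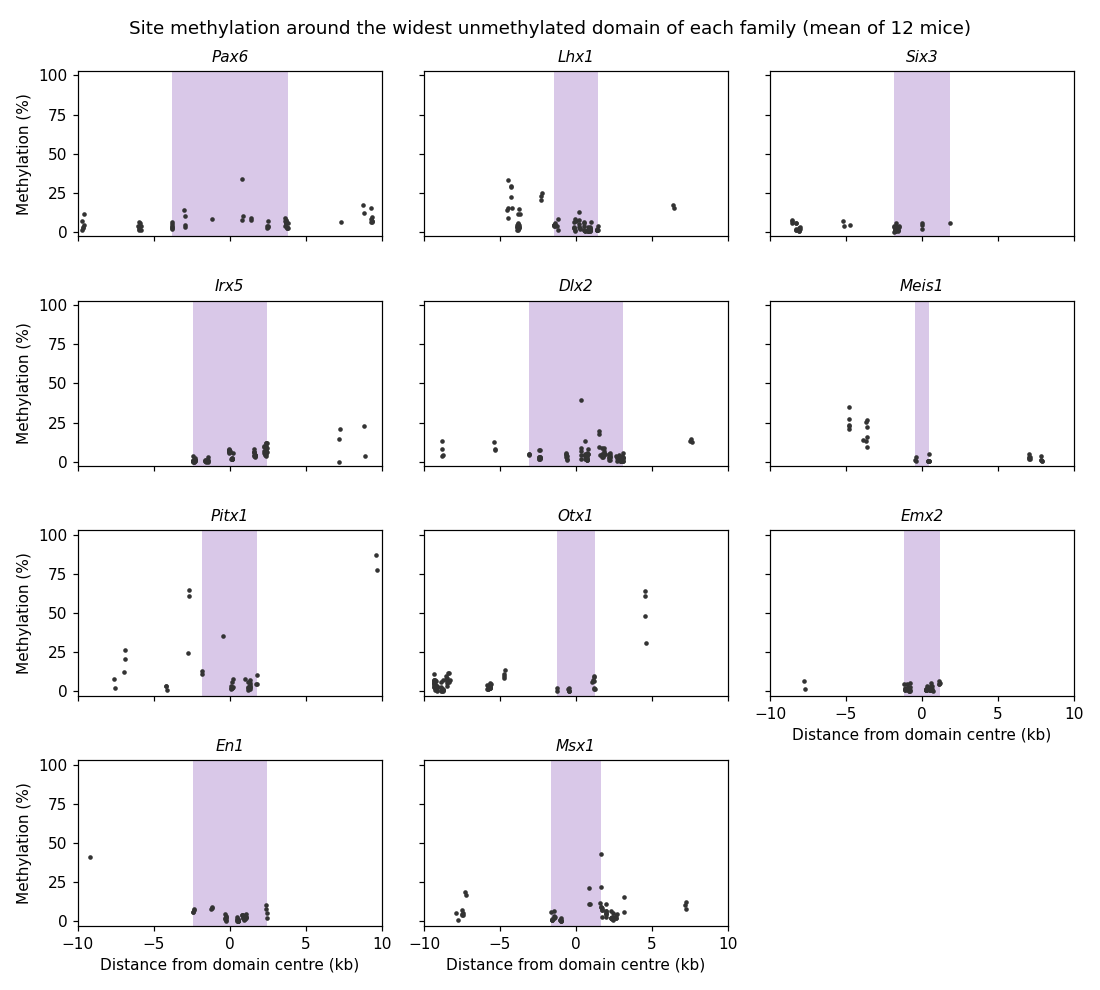
Methylation of single sites (percent, mean of 12 mice) against distance in kb from the centre of the widest unmethylated domain of each of the 11 families, with the domain shaded. Sites are clustered and leave gaps, Pitx1 has sites above 60% next to its domain, and at Pax6, Six3 and Emx2 the nearest sites outside are low as well.

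Methylated flanks were seldom seen next to the wide domains. Of the 23, 0 had a site of at least 50% within 5 kb on both sides, 6 had one on 1 side and 17 on neither. These counts cover measured sites only, and many flanks hold long stretches without any. At Pax6 the first such site lay 63615 bp to the left and 13832 bp to the right of the widest domain. Pitx1 was among the 6, with a site at 64.9% 888 bp to the left of its domain. Msx2, a gene of skull and tooth, had a site at 70.5% 3464 bp to the right.

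An edge was the set of at least 3 sites within 2 kb outside a domain and in no domain. The members had 10 edges, with means from 21.5% to 50.1% and a median of 31.9%, while the median over all 957 edges was 44.2%. The most methylated edge was that of Pitx1 (3 sites, 50.1%), which ranged from 37.0% in HFD male 4 to 55.8% in RD male 1. A stretch of 4 sites at Irx3 between 2 domains had 47.6%. Irx3 had 9 sites outside domains in all, with a mean of 40.2%. Edges at Pax8 and at Lhx6 had 39.4% and 39.2%, that of Irx1 34.7%, and the 2 edges of the smaller Lhx1 domain 21.5% and 22.8%. The edge at 22.8% lies between that domain and the widest Lhx1 domain, and so borders both.

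Outside domains the members' 309 sites had a mean of 38.8%, against 70.7% over all autosomal sites outside domains. The levels inside and outside domains differ by the definition and are given as a description. Of those 309 sites 13.3% reached 80%, against 53.7% of all.

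Averaged over their gene regions, the families ran from 3.61% for En to 16.9% for Meis, a description without a test. The Pax genes ran from Pax1 (3.18%) to Pax8 (32.3%). Pax8, a thyroid and kidney gene, Pax5, the B cell gene (28.8%), and Pax7 (16.3%), a gene of muscle stem cells, stood above Pax9 (8.24%), Pax2 (10.5%), Pax6 (11.04%) and Pax3 (13.2%). Pax5 held 17 of the 41 sites that reached 80%, and its sites outside domains had a mean of 61.2%. Its start window, printed above, was at 3.27%, so high and low stretches lay in the same region.

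LIM homeobox genes spread as widely. Lhx4 (3.16%), Lhx5 (3.70%) and Lhx1 (5.30%) were low, Lhx8 (8.63%) and Lhx2 (12.1%) were intermediate, and Lhx6 (16.9%), Lhx3 (18.7%) and Lhx9 (34.1%) were higher. Lhx9, a gonad and limb gene, had the highest mean of all members, on 4 sites.

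All 5 genes of the sine oculis family were low. Six4 had 2.04%, Six3 2.65%, Six6 2.83%, Six2 5.39% and Six5 5.56%. Six6 is an eye and pituitary gene, and Six4 acts in muscle and kidney formation.

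Iroquois genes formed low and high sets. Irx2 (3.58%), Irx5 (3.84%) and Irx3 (7.68%) were low, and Irx1 (17.1%), Irx4 (22.5%) and Irx6 (26.8%) higher. At Irx6 the 7 sites outside domains had a mean of 81.4%. Irx4, the ventricular member, had 5.16% in the 3 sites before its measured start.

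Distal-less genes lay from Dlx2 (4.50%) through Dlx1 (4.77%), Dlx5 (6.41%), Dlx4 (6.52%) and Dlx6 (6.85%) to Dlx3 (21.2%), an epidermal and placental gene. The small families followed. Meis2 had 16.4% and Meis1 17.3%, Pitx3, a lens and midbrain gene, 1.29% and Pitx1 8.24%, Otx1 4.11% and Otx2 6.14%, Emx2 2.23% and Emx1 8.26%, En1 3.15% and En2 4.06%, Msx1 5.94% and Msx2 6.94%. Pitx3 was the lowest of the 45, and its highest site of 32 was at 4.73%.

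**Figure D3:**
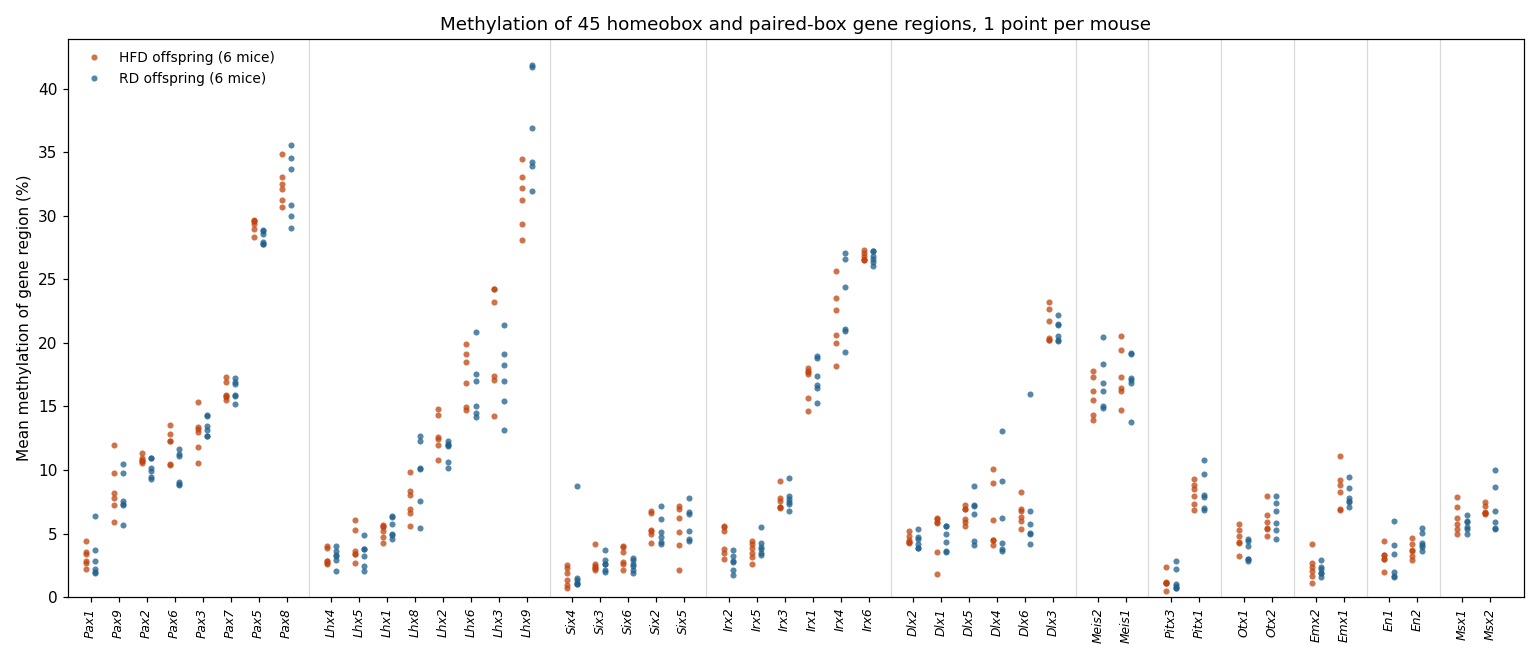
Mean methylation (percent) of each gene region, 1 point per mouse, for 6 HFD (orange) and 6 RD (blue) offspring, with genes grouped by family and ordered by level within it. The points of the diets overlap at all 45 genes, and the mean over mice runs from 1.29% at Pitx3 to 34.1% at Lhx9.

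The diets were not separated at these genes. The mean over the 45 regions was 10.23% in both groups, with an SD over 6 mice of 0.462 for HFD and of 0.857 for RD, and the ranges of 9.43 to 10.9% and 9.26 to 11.6% overlapped. Diet was tested with limma on a log2 ratio of methylated to unmethylated share, with sex as a term, over all gene regions and with Benjamini-Hochberg adjustment. Of the members 0 of 45 passed an adjusted p of 0.05, where the background was 0.105% (14 of 13383). The smallest adjusted p in that limma fit was 0.522. At an unadjusted p under 0.05 there were 4 members, or 8.89%, against a background of 7.36%. The diets did not overlap at 0 members, and at 0.65% of all regions. By direction, 21 members had lower and 24 higher means in HFD offspring. The difference was within 2 percentage points at 93.3% of the members and at 85.4% of all regions.

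Those 4 members were Irx2, Lhx9, Pax6 and Lhx2, and their values follow without a call. Irx2, an Iroquois gene of limb and lung, had 3.01 to 5.62% in HFD offspring (median 4.47) and 1.75 to 3.69% in RD offspring (median 2.77), so the highest RD mice reached into the HFD range. The difference was 1.69 percentage points (limma adjusted p = 0.522). Lhx9 had 28.1 to 34.5% in HFD and 31.9 to 41.8% in RD offspring, a difference of -5.35 points (limma adjusted p = 0.522). It had the fewest sites of the members, and when sites with values in at least 8 mice were admitted, the difference was -0.56 points. Pax6 had 12.0% ± 1.27 for HFD against 10.1% ± 1.32 for RD (SD, n = 6 each), and Lhx2 12.8% ± 1.49 and 11.5% ± 0.895, with limma adjusted p-values of 0.653 and 0.660.

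Domains were then tested in the same way. None of the 92 passed in the limma fit, and the background was 0.0% of 9139 domains. At an unadjusted p under 0.05 there were 9 (9.78%), against a background of 6.02%. Over all 92 domains 48 were higher and 44 lower in HFD offspring, with a median difference of 0.023 percentage points, while 5320 were higher and 3814 lower over all 9139. Of the 9, 8 were higher and 1 lower, and at the same threshold 438 were higher and 112 lower over all domains. The diets did not overlap at 2 of the 92 domains (2.17%), against 0.547% of all. The 9 lay at Pax2 (2 domains), Pax5, Pax6, Lhx2, Irx2, Dlx3, Otx1 and Otx2. The 3 with the smallest p are named here after their values were seen.

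A second Pax6 domain of 2020 bp (chr2:105680274-105682293, 10 sites) had 7.76 to 15.1% in HFD offspring with a median of 13.4%, and 2.81 to 11.5% in RD offspring with a median of 5.77%. HFD female 2 was the low mouse of its group and RD male 2 the high one of its own, and the groups overlapped through them. The difference was 6.17 percentage points (limma unadjusted p = 0.000693, limma adjusted p = 0.321). A domain of 1985 bp at Dlx3 had 4.80% ± 0.296 for HFD against 3.27% ± 0.345 for RD (SD, n = 6 each), without overlap, with a limma adjusted p of 0.414. The 5273 bp domain of Pax2 had 6.77% ± 0.685 and 5.01% ± 0.512, also without overlap, with a limma adjusted p of 0.492. With steps of at most 1000 bp the domain that overlaps this Pax2 domain most had a difference of -0.438 points. The value thus depends on how far the domain is drawn.

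That Pax6 domain ends in the printed internal start window. The 7 measured CpGs of the window lie from -221 to -170, counted in bases from the start, and each had a higher mean in HFD offspring. At -201 (position 105682262) HFD offspring had 5.56 to 18.2% with a median of 11.5%, and RD offspring 1.72 to 7.41% with a median of 3.89%. At -170 the means were 13.6% and 5.65%, and at -221 they were 18.3% and 12.0%. All 7 are among the 10 sites of that domain, and the window was chosen for the smallest p of its site. The values of the domain, the window and the site are thus not separate findings. Neighbouring CpGs can share reads and are not separate measurements.

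**Figure D4:**
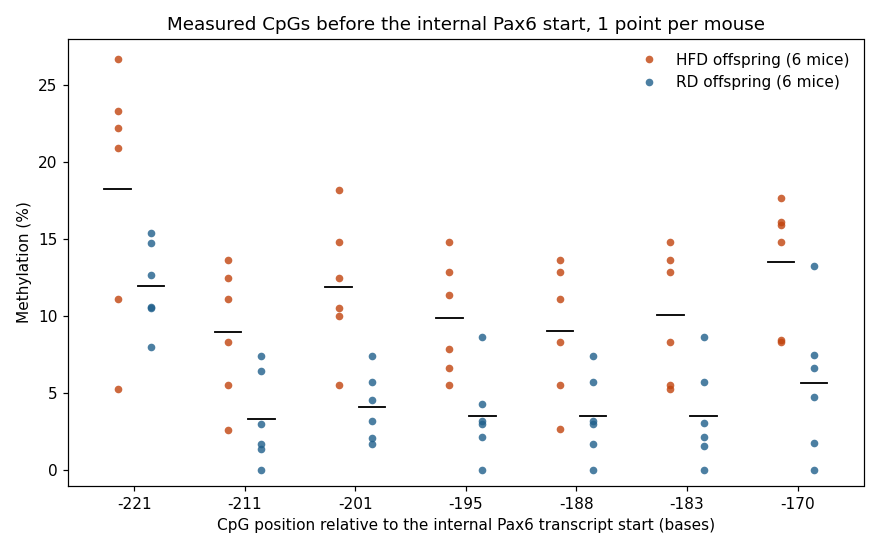
Methylation (percent) of the 7 measured CpGs before the internal Pax6 start, by their distance from it in bases, 1 point per mouse and a bar at the mean of each diet (6 HFD in orange, 6 RD in blue). HFD means are higher at all 7, and the mice of the diets overlap at each.

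Single sites gave no call among members either. In the limma fit of 157524 sites with means of 5 to 95%, 800 lay at members and 0 passed, against a background of 0.0102% (16 sites). At an unadjusted p under 0.05 there were 51 (6.38%), against 6.53% of all. Over the 800 sites 431 were higher and 369 lower in HFD offspring. Of the 51, 38 were higher and 13 lower, while at that threshold 4530 were higher and 5764 lower over all sites, and the difference between these splits was not tested. The 3 with the smallest p were the Pax6 site above and 2 sites at Pax2. Position 44749050 of Pax2 on chromosome 19 had 10.9% ± 2.96 for HFD against 3.70% ± 2.83 for RD (SD, n = 6 each). At position 44837962, near the other end of the gene, the values were 7.49% ± 1.39 and 2.91% ± 1.14. The diets did not overlap at these Pax2 sites, the 2 of 800 member sites (0.25%) of which this held, against 0.482% of all 157524. The smallest limma adjusted p among the members' sites was 0.544.

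Among the 10 edges 0 passed, and the background over 957 edges was 0.0%. At an unadjusted p under 0.05 the members had 1 (10%), against 9.09% of all edges. It was the edge of an Lhx2 domain at position 38352879, with 31.6% ± 14.1 for HFD against 21.2% ± 8.80 for RD (SD, n = 6 each), where the SD of the HFD offspring exceeded the difference (limma adjusted p = 0.474). Its difference of 10.4 points was 6.68 without HFD female 4 and 5.50 with domains drawn under 10%. The Pitx1 edge had 46.9% ± 6.90 and 53.3% ± 1.83 (limma adjusted p = 0.566), a difference of -6.38 points that was -2.66 when sites with values in at least 8 mice were admitted. An Lhx6 edge had 30.5% ± 6.56 and 27.8% ± 4.65 (limma adjusted p = 0.876). This difference of 2.72 points was 0.799 without HFD female 2, 1.41 without HFD female 3, 1.61 without RD female 3 and 4.17 without HFD male 4.

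Sex gave no call. None of the 45 members passed in the limma fit, with a background of 0.0%, and 2 (4.44%) had an unadjusted p under 0.05, against 5.8% of all regions. Both were lower in females and are named after their values were seen. Six2, a gene of kidney progenitors, differed by -1.70 percentage points (limma adjusted p = 0.566), or by -1.07 with 2 kb on each side, and Irx4 by -3.52 (limma adjusted p = 0.826). In direction, 34 of 45 members (75.6%) had lower means in females, as had 58.8% of all regions. The share was 70% over the other homeobox genes and 73.0% over the Hox regions.

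The difference between the diets was also compared between the sexes. None of the members passed the interaction in limma, with a background of 0.0%, and 1 (2.22%) had an unadjusted p under 0.05, against 4.93% of all. That was Lhx9, named after its values were seen, with a difference between the diets of -1.30 points in females and -11.9 in males on its 4 sites (limma adjusted p = 0.593). Without RD male 1 the RD males are a single mouse, RD male 2, which limma then assumes to vary like the other groups. In that fit 50 regions of the genome passed, Dlx6 among them (limma adjusted p = 0.0478). The value rests on RD male 2, which had 15.9% at Dlx6, while the other 11 mice had 4.18 to 8.27%.

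Markers of heart cells had other levels than the members, and no set test was run on them. The mean over the 4 endothelial marker regions was 40.4 to 44.2% in HFD and 44.6 to 52.4% in RD offspring, without overlap. All 4 were lower in HFD offspring, as were 49.7% of all regions. Singly, 1 of the 4 passed in the limma fit for diet, against 0.105% of all regions. The diets did not overlap at 1 of the 4, against 0.65% of all. The mean over 5 of 6 cardiomyocyte marker regions was 50.4 to 55.3% and 52.9 to 55.6%. Of the fibroblast markers 2 of 4 were measured, of the lymphocyte markers 1 of 4 and of the liver markers 0 of 4. The diets overlapped in the cardiomyocyte, fibroblast and lymphocyte means, and none of those regions passed. The differences were -0.356 points for the fibroblast and -1.45 points for the lymphocyte markers. What part a difference in cell makeup has in the values of the members was not tested.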

How the data were processed

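RRBS values came from the left ventricle of 12 mice. The authors deposited percent methylation per site, 1 column per mouse, per the file headers, and all columns matched a sample. Per the submitters' processing notes, FastQC, Trim Galore, Bismark 0.19, limma and mm10 were used. The coverage minimum and the handling of strands are not given in the sources used here, and both cytosines of a CpG can be listed. No coverage stands beside the percent values, so the depth is unknown, no interval was attached to single values and rates were tested. Of 421177 sites, 312650 had values in all mice. In the promoter windows of GRCm38.p6, 24026 of 24027 measured sites lay on a CpG. Gene positions and symbols came from RefSeq tables of that assembly and all 45 members matched, 33 of them in the promoter table.

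Samples were grouped by the diet and sex in the labels. Rates as fractions were turned into log2((rate + 0.05)/(1 - rate + 0.05)) and fitted with limma 3.58.1 in R 4.3.3 with diet and sex, two-sided, with Benjamini-Hochberg adjustment over all features of a kind and a threshold of 0.05. Gene regions with the same sites were joined, and sites were tested at means of 5 to 95%. The fits were also run on simulated rates with shifts larger than that of any member gene region. That run does not show whether shifts as small as those of the members would be found. Members and lists were chosen with earlier results of these data known. After values had been seen, an edge between 2 domains was counted once where the plan took each end separately, promoter windows were limited to protein-coding genes, the profile bins were set to 1 kb and the comparison at 30 or more sites was added.

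Named were members called, the 3 with the smallest p for diet among regions, edges and sites, the 5 highest and 5 lowest means, and the widest domain of each family. Alternatives covered the offset, untransformed rates, missing values, variances, the sex term, a replicate block, limits, distances and leaving out each mouse. Animals with the same number and sex were not paired by the labels. Figures were drawn with matplotlib 3.10.9.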

Additional observations from a re-analysis of the deposited data

Results flagged for a closer look

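The 6 mice of each diet were examined at all 45 gene regions and at the domains, edges and sites named for diet, 108 groups in all. In 5 of them 1 mouse stood far from the others by Dixon's criterion at the 95% level, and chance gives about 1 in 20, or 5.4 groups. At Six4, RD female 1 had 8.73%, while the other RD offspring lay between 1.01 and 1.47%. At Dlx6, RD male 2 had 15.9%, with the other RD offspring between 4.18 and 6.81%. At Six3, HFD male 4 had 4.14%, with the other HFD offspring between 2.15 and 2.60%. At Irx3, HFD female 4 had 9.14%, with the others of its group between 7.03 and 7.77%. At Pitx3, HFD male 3 had 2.33%, with the others of its group between 0.468 and 1.16%.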

How the results depend on the processing

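For the 15 named differences, 294 of 295 alternatives kept the direction and stayed without a call, and the smallest adjusted p among them in limma was 0.19. Their size moved by over 1.5 times for the Lhx2, Lhx6 and Pitx1 edges, Lhx9 and Six2, as given above. The exception was the Pax2 domain at 44746893, at -0.438 percentage points with steps of at most 1000 bp, where fewer sites enter the domain. No member passed for diet under any alternative run. Over the genome, 14 gene regions passed for diet, 4 to 15 when each mouse was left out in turn and 0 with the replicate block. The 16 sites became 78 with untransformed rates, 1 with values in at least 8 mice, 31 with trend and robust variances, 27 without the sex term, 0 with the replicate block, 39 without a limit on the mean, 54 at means of 20 to 80%, and 0 to 22 when a mouse was left out. For domains 2 passed without the sex term and 0 to 1 when a mouse was left out, and for edges 0 to 1. For sex, 1 region passed with 2 kb on each side and 0 to 2 when a mouse was left out. For the interaction, 1 passed with values in at least 8 mice, and 0 to 50 when a mouse was left out, with 0 to 1 members. The cause of these shifts was not tested. With steps of at most 1000 bp, the domains of at least 2 kb were 110 in place of 415, the members with one 5 in place of 20 and their median widest domain 909 bp in place of 1812. The label numbers did not pair the mice: deviations from the group means correlated at 0.001 to 0.058 in females and at -0.052 in males. The unknown coverage limits every value, those of regions with few sites such as Lhx9 included, and no coverage minimum could be tried.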
